A study of Mus musculus with 61 samples.

Results

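In sorted mouse retinal cells, 43 genes were followed across strain, age and nicotinamide treatment, all but Psmc3ip encoding subunits of the proteasome or its regulators. They were all genes of the expression table whose symbol begins with Psma, Psmb, Psmc, Psmd or Psme followed by a digit, 43 of 15149 genes. The rule took in 7 alpha subunits, and 7 constitutive and 4 inducible or tissue-restricted beta subunits. It took in 6 ATPases and 11 other subunits of the cap, 3 cap assembly chaperones and 4 activator genes. It also took in Psmc3ip, which encodes a meiotic recombination partner and no proteasome subunit, and which is counted among the members in the tests below. Psma8 and Psme2b, both named in the lists used here, had no row among those analysed.

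RNA sequencing had been run on 61 libraries of retinal cells sorted for Thy1.2, a surface protein of retinal ganglion cells, and negative for Cd11b, Cd11c, Cd34, Cd45.2 and GFAP. DBA/2J mice carry a mutation of Gpnmb and develop glaucoma as they age, whereas D2-Gpnmb+ mice are a control strain of the same background with a working Gpnmb. The groups were DBA/2J on water at 4 months (10 libraries), DBA/2J on water at 9 months (25), DBA/2J at 9 months given nicotinamide, a precursor of NAD (7), and D2-Gpnmb+ on water at 4 months (10) and at 9 months (9). All eyes had been chosen for an absence of axon degeneration, so the 9-month DBA/2J retinas precede that stage of the disease. Whether each library is its own animal is not given in the labels, and a p-value then reflects only library-to-library spread, which may be technical.

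The proteasome is the protease that degrades proteins tagged with ubiquitin. Its core is a barrel of outer alpha rings, which gate the entrance, and inner beta rings, which hold the cutting sites. The cap binds ubiquitin chains, removes them and unfolds the substrate with a ring of ATPases. Interferon induces a replacement set of cutting subunits (Psmb8, Psmb9 and Psmb10 in place of Psmb5, Psmb6 and Psmb7) that favours peptides for antigen presentation, and neurons are known to carry mostly the constitutive set.

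Each library held between 5133114 and 19501444 recovered reads (median 9730486). The proteasome genes took between 0.0603% and 0.187% of them. The libraries fell into 3 stretches of columns, called blocks here, whose meaning the labels do not give: block 1 held 6 DBA/2J and 4 D2-Gpnmb+ libraries of 9 months, block 2 held 16 and 2, and block 3 held 3 and 3 together with every 4-month and nicotinamide library. In the groups spread over blocks, age and treatment can therefore be compared within a block in block 3 only. Rod markers summed to medians of 5950 to 9356 normalised reads per group over 10 genes, against 207 to 369 for 11 ganglion cell markers, so the sorted cells carried abundant transcripts of other retinal neurons (summed values not divided by length). In bulk RNA of this kind, fewer cells of a type and less RNA per cell cannot be told apart.

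Before the values, the sequence just upstream of 3 genes is given, because these were called with age in every fit that left out a library, Psmb3 and Psmc5 higher and Psme3 lower. All 3 lie on chromosome 11 of GRCm38, on the plus strand: Psmb3, a beta ring subunit, at chr11:97703399-97713500; Psme3, the nuclear activator REG gamma, at chr11:101316213-101323537; and Psmc5, a cap ATPase, at chr11:106256154-106263120. The stretches below are RefSeq promoter sequence (GRCm38.p6) of 120 bases that end just before the gene's first annotated exon base, at chr11:97703279-97703398, chr11:101316093-101316212 and chr11:106256034-106256153. Capitals mark a CCAAT box (CCAAT or its complement ATTGG) or a GC box (GGGCGG or its complement CCGCCC).
Psmb3: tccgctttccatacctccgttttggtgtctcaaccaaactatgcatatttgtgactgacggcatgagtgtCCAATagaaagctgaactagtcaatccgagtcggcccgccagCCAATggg
Psme3: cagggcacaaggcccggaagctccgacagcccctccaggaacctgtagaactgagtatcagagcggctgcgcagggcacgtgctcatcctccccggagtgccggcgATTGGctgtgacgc
Psmc5: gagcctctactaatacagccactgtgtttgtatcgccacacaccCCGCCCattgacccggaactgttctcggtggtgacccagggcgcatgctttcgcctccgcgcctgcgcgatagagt

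Psmb3 held 2 CCAAT boxes in its stretch, Psme3 held 1 CCAAT box and Psmc5 held 1 GC box. Promoter windows were found for 37 of the 43 genes (40 windows). Over the 250 bases before the start, on both strands, CCAAT was in 37.5% of the members' windows against 33.8% of 32851 windows of all genes, and GGGCGG in 55% against 32.7%. The core of the antioxidant response element (TGACNNNGC), the site type of the transcription factors known to raise proteasome genes, was in 12.5% against 10.2%. The gamma-activated site TTCNNNGAA was in 2.5% against 7.02%, and the interferon response core GAAANNGAA in 7.5% against 7.13%. These are matches of letters only, and the motifs may overlap.

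Most proteasome genes were moderately high. Not divided by length, the median level over 61 libraries was above the median of all genes (10.2 normalised reads) for 35 of 43, and the middle member stood at 24.3 normalised reads. On the scale of normalised reads per kb of exon, alpha subunits had a median of 12.7 (range 6.69 to 25.9) and constitutive beta subunits one of 11.6 (3.502 to 17.4). ATPases had a median of 9.94 (5.65 to 31.9), and the other cap subunits 8.69 (2.19 to 15.97). Within a ring that is assembled from equal numbers of each subunit, values per kb thus differed several-fold. Each length is the union of all annotated exons, which need not be the expressed transcript, so this spread is not one of transcript levels alone. Undivided, medians ran from 19.8 to 49.5 normalised reads for alpha subunits, 11.97 to 38.1 for constitutive beta subunits and 14.7 to 44.4 for ATPases.

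The highest genes per kb were Psmc5 (31.9), Psma6 (25.9) and Psma5 (22.6), the last pair being alpha ring subunits. The lowest were Psmb11 (0.0772), Psmb8 (0.208) and Psmb9 (0.296), all of them inducible or tissue-restricted cutting subunits. Psmb11, known from the thymus, lies 3410 bases from Psmb5 on chromosome 14, and Psmb8 and Psmb9 lie 9956 bases apart on chromosome 17, so the lowest members are neighbours of each other or of a constitutive gene. Cap assembly chaperones (Psmd5, Psmd9 and Psmd10) ran from 1.11 to 4.74 per kb. The order of genes per kb rests on annotated exon lengths and was not tested.

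**Figure D1:**
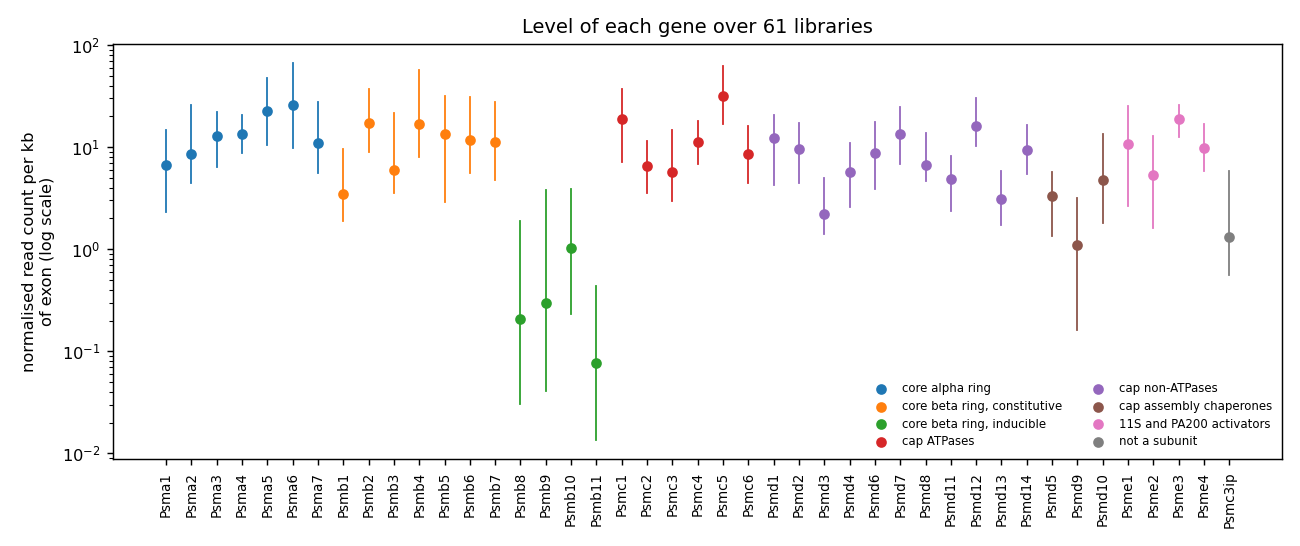
Level of each of the 43 genes in normalised reads per kb of exon (log scale), coloured by role; points are medians over 61 libraries and lines run from the lowest value above 0 to the highest. The 4 inducible or tissue-restricted beta subunits have the lowest medians of all core subunits, from 0.0772 to 1.03, and Psmc5 has the highest of all genes at 31.9.

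The constitutive cutting subunits were far above their inducible counterparts in every group. Per kb of exon, the group medians ran from 10.2 to 14.4 for Psmb5 against 0.0578 to 0.287 for Psmb8, from 9.67 to 13.7 for Psmb6 against 0 to 0.574 for Psmb9, and from 8.96 to 11.9 for Psmb7 against 0.649 to 1.61 for Psmb10. Without division by length, Psmb5, the chymotrypsin-like subunit, had medians of 11.8 normalised reads in 4-month DBA/2J, 12.6 in 9-month DBA/2J, 12.98 with nicotinamide, 11.1 in 4-month D2-Gpnmb+ and 9.16 in 9-month D2-Gpnmb+. Its counterpart Psmb8 had medians of 0.462, 0.970, 0.478, 0.195 and 0.790 in the same order. The Psmb8 values of single libraries reached 6.35 in 9-month DBA/2J, a group in which 1 library was at 0, and the ranges of all groups overlapped.

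Psmb6, the caspase-like subunit, had medians of 20.3, 25.7, 23.3, 18.1 and 20.1 normalised reads in the same order of groups, and Psmb9, its counterpart, 0.842, 1.48, 0.953, 0 and 2.10. Psmb9 was at 0 in 6 of 10 libraries of 4-month D2-Gpnmb+, where 3 reads, the limit that a count of 0 allows, correspond to 0.252 to 0.646 normalised reads. Its highest value of all, 13.8, came from a 9-month D2-Gpnmb+ library of block 1. Psmb7, the trypsin-like subunit, had medians of 37.6, 39.8, 40.5, 32.0 and 30.7, and Psmb10, its counterpart, 1.44, 2.74, 1.69, 1.11 and 1.43. None of Psmb5, Psmb6 and Psmb7 passed the test in any of the 8 comparisons described below.

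**Figure D2:**
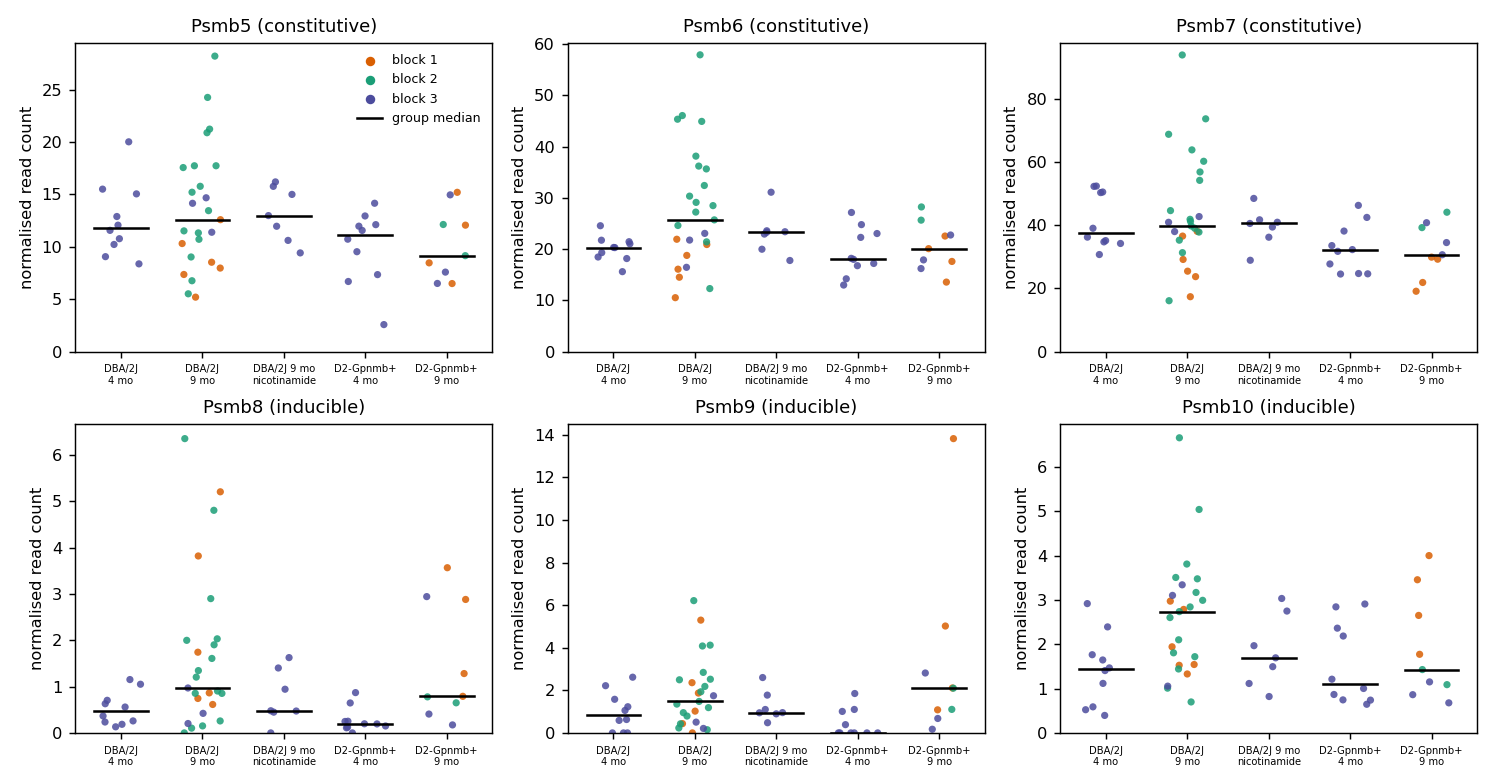
Normalised read counts of the constitutive cutting subunits Psmb5, Psmb6 and Psmb7 (upper row) and the inducible Psmb8, Psmb9 and Psmb10 (lower row) in each library by group, coloured by block; lines are group medians and the axes differ between genes. The inducible genes stay below 14 in all libraries, with Psmb10 highest among them in 9-month DBA/2J (median 2.74).

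From 4 to 9 months in DBA/2J, 11 of the 42 proteasome genes tested changed, 9 higher and 2 lower. A gene was called at an adjusted p under 0.05 by limma on log2(value + 1), with Benjamini-Hochberg adjustment over all genes tested. Of all genes tested, 22.4% were called, 9.25% higher and 13.2% lower. The total share of members, 26.2%, was near this background, while the calls were mostly in the higher direction. The median log2 fold change of the members was 0.22, against 0.02 for all genes, and 34 of 42 members had a value above 0 (52.2% of all genes). Beside this, 10 of 11 microglia and macrophage markers tested rose, and their summed level went from a range of 1.76 to 6.71 at 4 months, with C1qa and Cx3cr1 at 0 in all 10 libraries, to 1.72 to 272 at 9 months. The sums at 9 months had medians of 4.28 in block 1, 84.1 in block 2 and 5.80 in block 3. Comparisons over all libraries without this 9-month group tested 1 such marker. The markers thus passed the filter mainly through the group where they are high, and the count of rises is no independent result. Amacrine and horizontal cell markers fell in 7 of 8 tested (median log2 fold change -2.43; summed levels of 133 to 1168 at 4 months and 43.6 to 520 at 9 months). Mueller glia and astrocyte markers rose in 4 of 8 (median 0.93; sums of 774 to 2946 and 196 to 5953), and rod markers in 2 of 10. Of the ganglion cell, cone and bipolar markers, 2 fell in each list, and no endothelial or pericyte marker was called. Within block 3 the Mueller glia and astrocyte markers changed side, with a median of -1.33 and 2 of 8 above 0. Of these, 7 of 8 had an unadjusted p under 0.05 (10.7% of all genes) and 0 were called. Rod markers had a median of 0.81 over all libraries and 0.02 within block 3. Amacrine and horizontal cell markers were still at -0.91 there, and only 1 microglia and macrophage marker could be tested. The part of these cell types in the proteasome result was not tested.

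The calls higher with age were in the core and the cap. Of 7 alpha subunits, Psma5 and Psma6 rose. Of 7 constitutive beta subunits, Psmb1, Psmb3 and Psmb4 rose, which are non-cutting subunits of the ring. Of the inducible subunits, Psmb10 rose, as did Psmc5 among 6 ATPases and Psmd4 and Psmd13 among 11 other cap subunits. Psmd1, the large scaffold of the cap, and Psme3 fell. None of the 3 cap chaperones was called. The count of 11 fell to 6 without library 3 or without library 5 of 4-month DBA/2J, and to 7 without library 7 or library 8 of that group.

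Psmb3 moved the most. In 4-month DBA/2J its lowest, median and highest values were 8.58, 11.7 and 18.003 normalised reads, and at 9 months 8.10, 24.6 and 49.1. The ranges overlapped, but 17 of 25 libraries at 9 months lay above the highest at 4 months. The log2 fold change was 0.84 ± 0.19 (SE) with limma's adjusted p = 0.00181.

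Psmc5 had 30.0, 39.9 and 48.1 normalised reads (lowest, median, highest) at 4 months and 35.7, 55.7 and 87.6 at 9 months, with 17 of 25 libraries above the highest young value. Its log2 fold change was 0.48 ± 0.13 (SE, limma's adjusted p = 0.00634). Psmb4, another non-cutting beta subunit, had medians of 28.3 and 46.5 and reached 111 at 9 months, where 16 of 25 libraries exceeded the young range. Its log2 fold change was 0.54 ± 0.18 (SE, limma's adjusted p = 0.0282).

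Psma5 had medians of 27.2 and 36.0 normalised reads (log2 fold change 0.45 ± 0.15 SE, limma's adjusted p = 0.0241). Psmd13, a cap lid subunit, had medians of 10.4 and 12.6 (0.39 ± 0.13 SE, limma's adjusted p = 0.0302). Psmb1 had medians of 13.6 and 20.3 (0.50 ± 0.17 SE, limma's adjusted p = 0.0319). Values at 9 months overlapped the young range for each of these genes, and 342 bases of Psmd13's exons overlap Sirt3 on the opposite strand, where reads may not be told apart because strand use in counting is not stated. The other 3 risen genes had limma log2 fold changes of 0.56 (Psmb10), 0.48 (Psma6) and 0.45 (Psmd4), and the 35 fits that each left out 1 library called Psmb10 in 29, Psma6 in 26 and Psmd4, a ubiquitin receptor, in 6.

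Psme3 went the other way. It had 55.8, 65.4 and 75.9 normalised reads (lowest, median, highest) at 4 months and 37.3, 50.6 and 66.2 at 9 months, and 19 of 25 older libraries lay below the lowest young one. Its log2 fold change was -0.39 ± 0.09 (SE, limma's adjusted p = 0.00251). The related activator genes did not follow it: Psme1 and Psme2, whose products form the interferon-induced activator, had log2 fold changes of -0.14 and 0.03, and Psme4, a different activator, -0.06, none of them past the threshold. Psmd1 had 80.7, 105 and 118 normalised reads at 4 months and 30.8, 80.5 and 150 at 9 months, with a log2 fold change of -0.44 ± 0.15 (SE, limma's adjusted p = 0.0280).

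**Figure D3:**
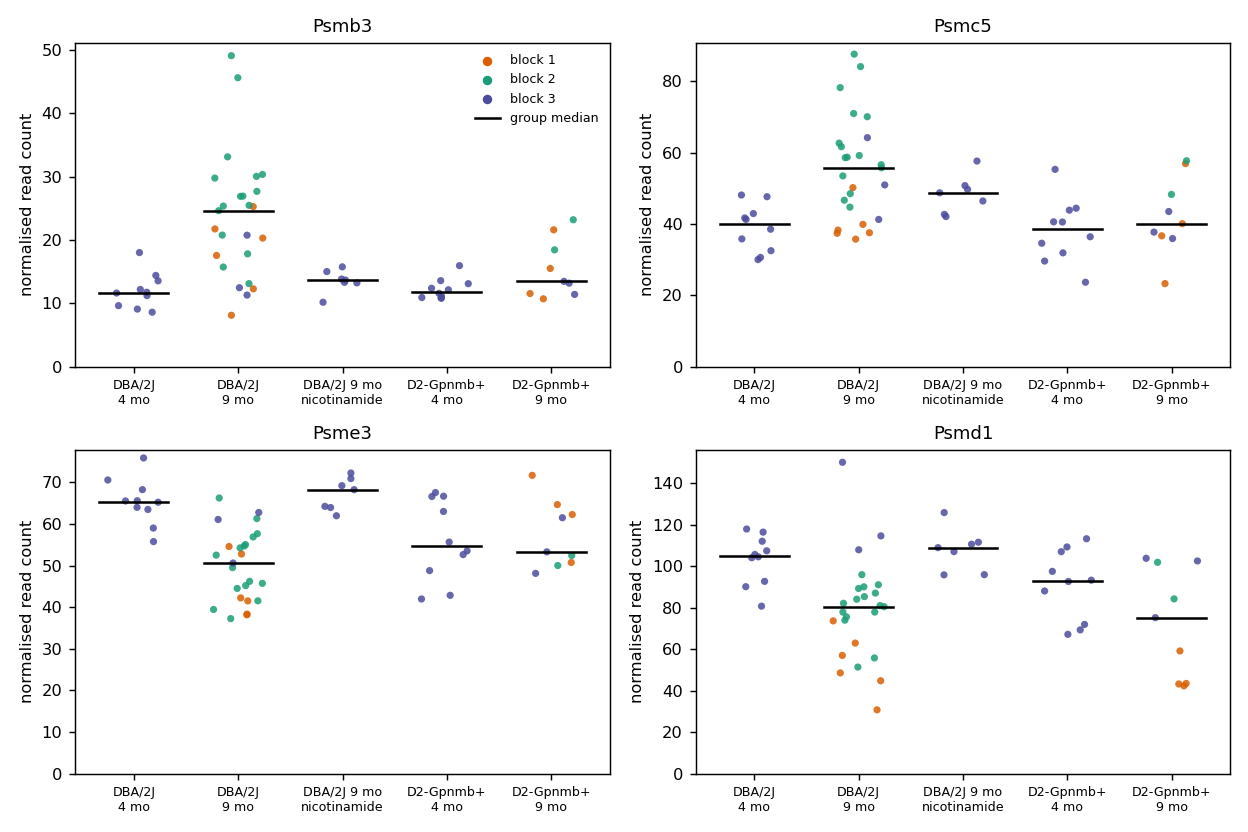
Normalised read counts of Psmb3, Psmc5, Psme3 and Psmd1 in each of the 61 libraries by group, coloured by block of columns; lines are group medians. For Psmb3 the high 9-month DBA/2J values (up to 49.1) are block 2 libraries, and for Psmd1 the low values of both strains (down to 30.8) are block 1 libraries.

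The number of calls with age differed with the libraries that entered. A fit within block 3 also cuts the older libraries from 25 to 3, so block and number of libraries cannot be told apart there. The 10 young libraries are all of block 3. Against them, the 3 older DBA/2J libraries of block 3 gave 0 of 41 members past the threshold by limma (0.263% of all genes called). By limma 3 members had an unadjusted p under 0.05, against 10.7% of all genes. The tests by edgeR and DESeq2 were not run within blocks. The median of the members was still 0.14 within block 3, against -0.00 for all genes, and 34 of 41 were above 0 (49.0% of all genes). This shift rests on 3 older libraries. On the level of the whole set defined below, library 26 stood at 0.40, library 27 at -0.11 and library 28 at 0.05. The 4-month DBA/2J libraries ran from -0.27 to 0.17, so only library 26, which also had the fewest reads (5133114), lay above them. Without block 1, 16 members rose and 1 fell, against a background of 19.2% of all genes (8.27% higher, 10.9% lower).

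The Psmb3 medians of 9-month DBA/2J were 18.9 normalised reads in block 1, 26.9 in block 2 and 12.5 in block 3. Its log2 fold change within block 3 was 0.27, with a 95% interval of -0.17 to 0.71 that does not reach the value over all libraries. Psmc5 in block 3 had 0.41 (0.07 to 0.74) and Psmb10 had 0.53 (-0.15 to 1.21), close to their values over all libraries, with limma's adjusted p of 0.337 and 0.610. Psme3 in block 3 had -0.17 (-0.39 to 0.06).

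Psmd1 changed sign. Its 9-month DBA/2J medians were 52.8 normalised reads in block 1, 81.6 in block 2 and 115 in block 3, and 9-month D2-Gpnmb+ libraries had 43.4, 93.1 and 103 in the same blocks. Within block 3 its log2 fold change with age was 0.26 (-0.00 to 0.52) in place of -0.44. Psmd13 was -0.01 (-0.43 to 0.41) there. Over the 11 called genes, the value from all libraries lay outside the block 3 interval for 3: Psmb1, Psmb3 and Psmd1.

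**Figure D4:**
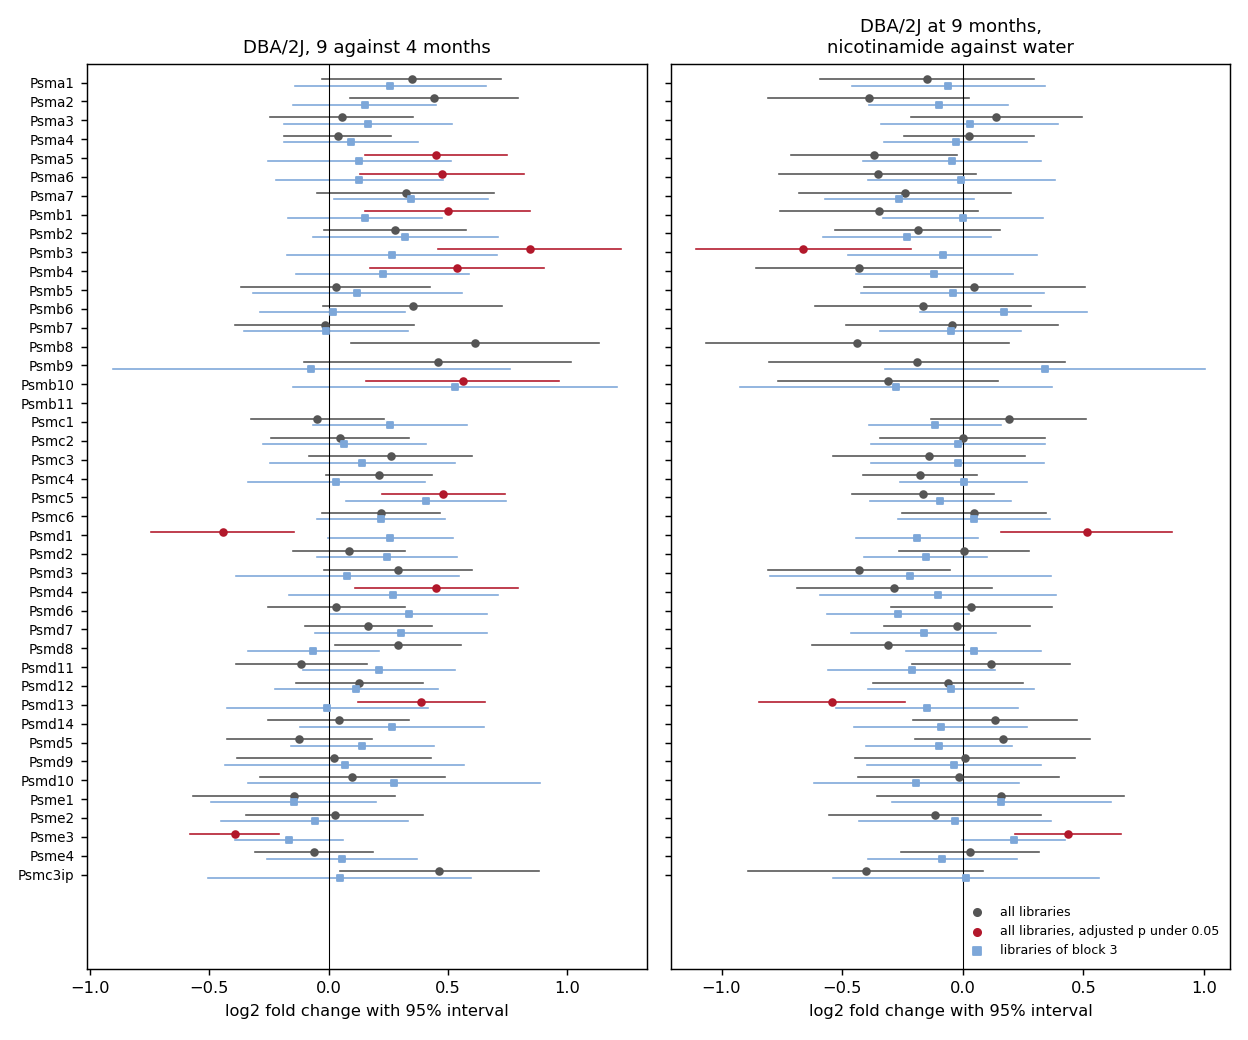
Log2 fold changes with 95% intervals for all tested proteasome genes, ordered by role, from 4 to 9 months in DBA/2J (left) and for nicotinamide against water at 9 months (right); circles use all libraries, red where limma's adjusted p was under 0.05, and squares use block 3. The 11 red genes on the left and 4 on the right have no red square, and Psmd1 lies on opposite sides of 0 in both panels.

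The level of the whole set in each library was taken as the median over 40 genes (those with a median level of at least 1, without Psmc3ip) of the difference of log2(value + 1) from each gene's mean over all libraries. In 9-month DBA/2J it had a median of -0.24 in block 1, 0.23 in block 2 and 0.05 in block 3, against -0.09 in 4-month DBA/2J, and the 6 libraries of block 1 all lay below 0. In 9-month D2-Gpnmb+ it was -0.17, 0.09 and -0.21 in the 3 blocks, so block 2 was highest in both strains. The same measure over all genes stayed between -0.05 and 0.04 in every library.

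Measured instead as a share of all reads, the members took a median of 0.129% in block 1, 0.122% in block 2 and 0.126% in block 3 of 9-month DBA/2J, without the low block 1. The order of blocks thus depended on the scale. Block 2 DBA/2J libraries also had microglia and macrophage marker sums of 8.46 to 272 (median 84.1) against 1.87 to 7.01 in block 1 and 1.72 to 6.98 in block 3, where Tyrobp and C1qa were at 0 in all libraries. Their rod marker sums had a median of 21914, against 7924 in block 1 and 6342 in block 3. Block 1 stood apart in other markers: in 9-month DBA/2J the summed Mueller glia and astrocyte markers had medians of 4582, 2503 and 885 in blocks 1, 2 and 3, endothelial markers 389, 157 and 76.2, and pericyte and smooth muscle markers 290, 46.4 and 51.7. In 9-month D2-Gpnmb+ the Mueller glia and astrocyte sums were 10683, 1808 and 1582. Ganglion cell markers were lowest in block 1 of DBA/2J, with medians of 154, 243 and 292. The part of these values in the proteasome levels was not tested.

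**Figure D5:**
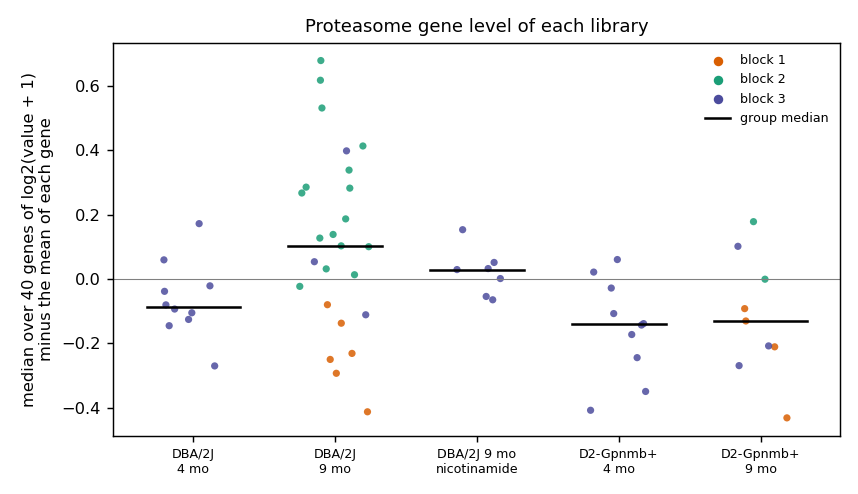
Proteasome gene level of each library, as the median over 40 genes of the log2(value + 1) difference from the gene's mean, by group and coloured by block; lines are group medians. In 9-month DBA/2J the block 1 libraries lie between -0.41 and -0.08 and the block 2 libraries between -0.02 and 0.68.

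With nicotinamide, 4 of 42 members differed from 9-month DBA/2J on water, Psme3 and Psmd1 higher and Psmb3 and Psmd13 lower, against a background of 15.1% of all genes (9.78% higher, 5.34% lower). The members' share, 9.52%, was below the background. Their median log2 fold change was -0.13, against -0.03 for all genes. All 4 genes were also called with age in DBA/2J, with the opposite sign, but both comparisons use the same 25 water libraries and so are not independent.

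Markers of other cell types differed in the same comparison. With nicotinamide, 8 of 8 amacrine and horizontal cell markers tested were higher (median log2 fold change 2.71; summed levels of 204 to 1202 against 43.6 to 520 on water), as were 7 of 8 cone markers (median 1.12; sums of 1267 to 2567 against 330 to 1852), 2 of 10 ganglion cell markers and 1 of 8 bipolar markers. Lower were 5 of 11 microglia and macrophage markers (median -1.45; sums of 2.31 to 4.41 against 1.72 to 272), 3 of 8 Mueller glia and astrocyte markers (median -1.03) and 1 of 4 pericyte markers. C1qa was at 0 in all 7 nicotinamide libraries. The microglia and macrophage markers passed the filter mainly through the water libraries, whose sums were high in block 2 (median 84.1). Within block 3 none of these markers was called by limma. There 7 of 9 amacrine and horizontal cell markers, 8 of 10 rod markers and 5 of 8 cone markers had an unadjusted p under 0.05, all of them higher. The share of all genes at that limit was 16.8%. Mueller glia and astrocyte markers changed side within block 3, with a median of 0.97 and 6 of 8 above 0. Of these, 3 had an unadjusted p under 0.05. Rod markers changed side too, from a median of -0.25 over all libraries to 0.64 within block 3. The part of these cell types in the differences of the proteasome genes was not tested.

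Psme3 had 62.0, 68.2 and 72.2 normalised reads (lowest, median, highest) with nicotinamide, and all 7 libraries lay above the water median of 50.6. Its log2 fold change was 0.44 ± 0.11 (SE, limma's adjusted p = 0.00592). Psmd13 had 6.44, 8.88 and 10.8, all below the water median of 12.6, with a log2 fold change of -0.54 ± 0.15 (SE, limma's adjusted p = 0.0123). Leaving out any single nicotinamide library left 2 calls, and Psme3 and Psmd13 were called in all 32 fits that each left out 1 library.

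Psmb3 had 10.2, 13.7 and 15.7 normalised reads with nicotinamide, all below the water median of 24.6 (log2 fold change -0.66 ± 0.22 SE, limma's adjusted p = 0.0367). Psmd1 had 95.8, 109 and 126 (0.51 ± 0.18 SE, limma's adjusted p = 0.0419). None of the inducible subunits passed, with log2 fold changes of -0.44 for Psmb8, -0.19 for Psmb9 and -0.31 for Psmb10.

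All nicotinamide libraries belong to block 3. Against the 3 water libraries of block 3, 0 of 41 members passed the threshold by limma (0.00749% of all genes called). At an unadjusted p under 0.05 by limma there were 0 members, against 16.8% of all genes. There Psme3 was 0.21 (95% interval -0.00 to 0.42), Psmb3 -0.08 (-0.48 to 0.31), Psmd13 -0.15 (-0.52 to 0.23), and Psmd1 reversed to -0.19 (-0.44 to 0.06). The value over all libraries lay outside the block 3 interval for all 4 genes. Without block 1, 1 member was higher and 6 lower, against 14.3% of all genes called (8.62% higher, 5.7% lower).

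Compared with the 4-month DBA/2J libraries, 0 of 41 members differed with nicotinamide by limma (1.54% of all genes called). By edgeR 0 members passed, and by DESeq2 1, Psmc6. At an unadjusted p under 0.05 by limma there were 3 members, against 14.9% of all genes. This comparison lies in block 3 as a whole. The median of the members was 0.08, against 0.01 for all genes. Psmc6, a cap ATPase, had a log2 fold change of 0.27 ± 0.08 (SE, limma's adjusted p = 0.105), and Psmc5 had 0.32 ± 0.10 (SE, limma's adjusted p = 0.119).

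In D2-Gpnmb+, 0 of 41 members changed from 4 to 9 months by limma (0.0232% of all genes called). By limma 2 members had an unadjusted p under 0.05, against 30.3% of all genes. Both edgeR and DESeq2 called 1 member, Psmb9, which had the smallest p by limma too: 1.24 ± 0.37 (log2 fold change with SE, limma's adjusted p = 0.0750). A fold change on the log2(value + 1) scale understates the change of low genes, and on the recovered reads its log2 fold change was 2.76 by edgeR (adjusted p = 0.0291) and 2.83 by DESeq2 (adjusted p = 0.00879). It was called by limma without library 13 or without library 14 of the 9-month group, at log2 fold changes of 1.41 and 1.35. Its block medians at 9 months were 3.56, 1.60 and 0.678 normalised reads, and the log2 fold change inside block 3 was 0.56 (95% interval -0.22 to 1.34). The exons of Psmb9 share 212 bases with Tap1 on the opposite strand, where reads may not be told apart. Tap1 had a log2 fold change of 1.38 in the same comparison (limma's adjusted p = 0.0750). In block 3, 0 of 41 members passed by limma (0% of all genes called), and 0 had an unadjusted p under 0.05 (4.68% of all genes). The members' median in the comparison over all blocks was 0.07, against -0.00 for all genes.

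The difference between the strains' changes with age was tested as an interaction. By limma 0 of 42 members passed (0.375% of all genes called), and 0 by edgeR and by DESeq2. None of the 11 genes called in DBA/2J was thus shown to change differently there. At an unadjusted p under 0.05 by limma there were 5 members, against 12.9% of all genes. Psme3 had the smallest p, with a difference of -0.43 ± 0.14 (SE) and limma's adjusted p = 0.128, and Psmb1 had 0.64 ± 0.25 (SE, limma's adjusted p = 0.234). The interval of Psmb3 ran from 0.03 to 1.11 and that of Psmc5 from -0.07 to 0.76. In block 3, 0 of 42 passed by limma (0.0774% of all genes called), and 1 member had an unadjusted p under 0.05 (8.29% of all genes).

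Between strains at 4 months, 0 of 40 members passed by limma (0.25% of all genes called), and 0 by edgeR and by DESeq2. At an unadjusted p under 0.05 by limma there were 4 members, against 13.5% of all genes. At 9 months 0 of 42 passed by limma (0.0218% of all genes called), and 0 by edgeR and by DESeq2. By limma 9 members had an unadjusted p under 0.05, against 13.2% of all genes. Still, 35 of 42 members had higher values in DBA/2J, against 45.8% of all genes. The members' median was 0.25, against -0.03 for all genes. Psmb1, with 0.54 ± 0.19 (SE, limma's adjusted p = 0.197), and the cap ATPase Psmc3, with 0.50 ± 0.18 (SE, limma's adjusted p = 0.211), led these. The shift differed between blocks: in block 1 the median was -0.01 with 20 of 42 above 0 (45.1% of all genes). There 0 members passed by limma while 12.3% of all genes did, and 3 members had an unadjusted p under 0.05 (24.2% of all genes). In block 3 the median was 0.16 with 36 of 40 above 0 (48.4% of all genes). Here 0 members passed by limma (0% of all genes called), and 3 had an unadjusted p under 0.05 (6.36% of all genes). There the library levels of the set overlapped, from -0.11 to 0.40 in 3 DBA/2J libraries and from -0.27 to 0.10 in 3 of D2-Gpnmb+.

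Nicotinamide-treated DBA/2J differed from 9-month D2-Gpnmb+ in 0 of 41 members by limma (0% of all genes called), and in 0 by edgeR and by DESeq2. By limma 5 members had an unadjusted p under 0.05, against 29.4% of all genes. Within block 3, 0 of 42 members differed by limma (0.299% of all genes called), and 8 had an unadjusted p under 0.05 (16.7% of all genes). Psmd1 had the smallest p over all blocks, with 0.65 ± 0.20 (log2 fold change with SE, limma's adjusted p = 0.0837), and its D2-Gpnmb+ values were lowest in block 1.

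Genes that work with the proteasome were read beside it, each list against the same 22.4% of all genes called with age in DBA/2J. Of 5 core assembly factors 2 rose, Psmg4 (log2 fold change 1.01 ± 0.24 SE, limma's adjusted p = 0.00261) and Psmg3 (0.86 ± 0.20 SE, limma's adjusted p = 0.00194), chaperones that pair the alpha subunits. Of 7 ubiquitin genes and activating enzymes 4 rose and 1 fell, with Rps27a at 0.76 ± 0.18 (SE, limma's adjusted p = 0.00271). The enzyme gene that fell was Uba6, at -0.29.

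Of 13 antigen presentation and interferon genes 11 rose and 0 fell. Those with the smallest adjusted p by limma were B2m, the light chain of class I molecules (1.19 ± 0.22 SE, adjusted p = 0.000287), H2-K1 (0.69, adjusted p = 0.00187) and the interferon-induced Gbp2 (1.04, adjusted p = 0.00295). With age in D2-Gpnmb+, all genes of this list that were tested had log2 fold changes above 0, and none was called by limma. B2m was lower there than in DBA/2J, at 0.86, and H2-K1 and Gbp2 were higher, at 0.95 and 1.35. Their adjusted p by limma were 0.0946, 0.0741 and 0.0741. The rise was thus not shown to be particular to DBA/2J. Of 8 associated subunits and enzymes 1 rose (Shfm1, a small cap subunit, 0.51) and 1 fell (Txnl1, a cap-bound thioredoxin, -0.72). Of 11 transcription and stress regulators 3 rose and 1 fell. Nfe2l1, the transcription factor that drives proteasome genes when the protease is inhibited, was the one that fell, at -0.38 (limma's adjusted p = 0.0190). Its activating protease gene Ddi2 rose by 0.58 and its partner Mafk by 0.78. In D2-Gpnmb+ the changes with age of Nfe2l1, Ddi2 and Mafk were -0.26, 0.63 and 0.26, none of them called. Of 10 shuttle factor and segregase genes, Rad23b fell, at -0.36, and no other was called.

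In block 3, 1 gene of these lists passed with age in DBA/2J, the class I gene H2-D1 (1.45 ± 0.26 SE, limma's adjusted p = 0.0177), and Rps27a was at 0.04 and B2m at 0.60. With nicotinamide, where 15.1% of all genes were called and 5.34% were lower, 4 of 7 ubiquitin genes and activating enzymes were lower than on water over all libraries, with Rps27a at -0.65 and the activating enzyme gene Uba7 at -1.50, as were 2 of 13 antigen presentation genes, B2m at -1.40 and Gbp2 at -1.27. Of the associated genes, Txnl1 (0.69) and the cap deubiquitinase Usp14 (0.56) were higher and Shfm1 (-0.65) lower. Within block 3 none of these lists' genes passed with nicotinamide by limma. There 4 of 13 antigen presentation genes had an unadjusted p under 0.05, against 16.8% of all genes. Rps27a was at 0.06 and B2m at -0.81 in that block. In the remaining comparisons over all libraries, the interaction called 1 ubiquitin gene, Rps27a (1.24 ± 0.26 SE, limma's adjusted p = 0.0202), and nicotinamide against 4 months called H2-D1 (0.65 ± 0.14 SE, limma's adjusted p = 0.0261).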

How the data were processed

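Thy1.2-positive retinal cells of 61 libraries were analysed in 5 groups. Per the submitters' processing notes, reads were handled with TopHat2 2.0.7, Bowtie2 2.0.6 and HTSeq on the mouse build mm10. What the authors deposited is a signal per gene on a linear scale, in which read counts had been divided by a library size. Within a tolerance of 0.05, 100% of positive values were whole multiples of 1 step per library, and these whole reads went into edgeR 4.0.16 and DESeq2 1.42.0, which called 3174 and 3709 genes with age in DBA/2J and 2275 and 2938 for nicotinamide against water. Of 15171 genes, 22 with names turned into dates were left out.

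The main test was limma 3.58.1 (R 4.3.3, trend and robust) on log2(value + 1), with only the groups compared and genes that reached 1 in a number of libraries equal to the smaller group's size. It was tested on simulated data that held no blocks, so that check says nothing about calls that depend on the blocks. Adjustment was Benjamini-Hochberg over all genes, with a threshold of 0.05. Fold changes on this scale understate low genes. Intervals are at 95%. Depth limits the inducible genes: 3 reads correspond to 0.169 to 0.646 normalised reads, and this limit covers counting error only.

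Columns could be matched to groups but not to single samples, and the blocks were set by hand from stretches of columns, with earlier results known. Members and lists, too, were chosen with earlier results of these data known. The genes named are the called members (up to 6 per direction with the smallest adjusted p), the cutting subunits and activators, the 3 highest and 3 lowest genes per length, and up to 3 genes per related list (some genes are not reported here); Psmb1, Psmc3, Psmc5, Psmc6, Psmd1 and Psme3 in comparisons where they were not called, and Psma6, Psmb10 and Psmd4 beyond the 6, were added after their values were seen. Alternatives were pseudocounts, no filter, scaling to the total, edgeR, DESeq2, all 5 groups in the fit, blocks, and each library left out. Gene positions and exon lengths are from GENCODE on GRCm38. No protein sequences were used here.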

Additional observations from a re-analysis of the deposited data

Results flagged for a closer look

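Of 80 sets tested (20 genes in 4 groups of up to 10 libraries), 5 held a library far from the others, and chance alone flags about 1 in 20 such sets. Among the 4-month D2-Gpnmb+ libraries, library 6 had the lowest Psma5 value (13.98 normalised reads, the others 23.7 to 34.2) and the lowest Psmb4 value (15.6, the others 23.5 to 34.1). Library 5 of the same group had the lowest Psmb5 value, 2.58, with the others at 6.70 to 14.2. Library 4 of the nicotinamide group had the lowest Psmb3 value, 10.2, with the others at 13.2 to 15.7. Library 3 of 4-month DBA/2J had the highest Psmb11 value, 2.10, with the others at 0.112 to 0.755.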

How the results depend on the processing

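Of the 11 genes called with age in DBA/2J, 9 to 11 kept direction and call under other pseudocounts, no filter, total scaling, edgeR, DESeq2, all 5 groups in the fit, and 10 without block 1. The count became 0 with the block as a covariate, 0 in block 3 only (the same values, since the young libraries lie in block 3) and 17 without block 1, an alternative chosen after seeing the data; for nicotinamide against water it became 0, 0 and 7. Psmd1 reversed to 0.26 with age and -0.19 with nicotinamide, and Psmd13 to -0.0062 with age, both with the covariate and in block 3; the cause was not tested. With all 5 groups in 1 fit, 1 member (Psmb1) passed for strain at 9 months, 2 (Psmb8 and Psmb9) for age in D2-Gpnmb+ and 1 (Psmd1) for nicotinamide against D2-Gpnmb+. Age in D2-Gpnmb+ gave 1 by edgeR and 1 by DESeq2, nicotinamide against 4 months 1 by DESeq2, and the interaction 1 (Psme3) after scaling to the total, which moved the median of all genes to 0.24 for strain at 4 months, -0.13 for strain at 9 months, 0.31 for age in D2-Gpnmb+ and -0.36 for the interaction.

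With each library left out, the count ran from 6 to 12 for age in DBA/2J (6 without 4-month library 3 or 5, 7 without 7 or 8), 2 to 4 for nicotinamide against water (2 without any of the 7 nicotinamide libraries), and 0 to 1 for age in D2-Gpnmb+. It stayed at 0 in the other 5 comparisons. No paired analysis was possible because the columns carry no numbers that pair libraries across groups. Depth limits Psmb8, Psmb9 and Psmb11, which were at or under 3 reads in many libraries (Psmb8 in 9 of 10 of 4-month D2-Gpnmb+).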
